A study of Homo sapiens with 12 samples.

Results

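SCD, SLC1A5, RRAGA, ENO1 and GLO1 are 5 genes of cell metabolism and nutrient sensing whose mRNAs were crosslinked to the translation initiation factor eIF3 in human 293T cells. They were chosen by name from the 479 genes of the deposited cluster table. In view were the number and spacing of their 5′ UTR sites, reads per subunit, changes of the strongest site between subunits, and conversions. Those values are therefore given here as a description, with no test. The table gave them 36 of its 1477 clusters, a cluster being a stretch of RNA where crosslinked reads pile up. The name of the group describes gene functions: SLC1A5 is a transporter, RRAGA a GTPase, and SCD, ENO1 and GLO1 are enzymes.

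In the experiment (PAR-CLIP), 293T cells, an established line derived from human embryonic kidney, took up the uridine analog 4-thiouridine at 100 µM for 14 h and were then crosslinked on ice at 0.15 J per square cm. All 12 libraries came from eIF3 immunoprecipitated with an antibody against eIF3b, followed by RNase T1 digestion and excision of protein-RNA complexes from a denaturing gel. They form 4 groups of 3 replicates, labelled eIF3a, eIF3b, eIF3d and eIF3g. The groups share the cell line, labelling, dose and antibody, and no untreated or control library is among the samples. The table holds 1 pooled value per cluster and subunit, so no value below carries a spread between libraries, and the labels do not say whether the replicates were separate cultures.

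eIF3 is a complex of many subunits that binds the small ribosomal subunit and helps bring it to the 5′ end of an mRNA, and it can also touch the 5′ UTRs of particular mRNAs directly. eIF3a is the large scaffold of the complex, eIF3b and eIF3g carry RNA recognition motifs, and eIF3d has been described as able to bind the mRNA cap. The 5 genes cover linked steps of metabolism: uptake of glutamine, sensing of amino acids at the lysosome, glycolysis, removal of a toxic by-product of glycolysis, and fatty acid desaturation.

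Summed over all clusters the lists held 15132 reads for eIF3a, 19187 for eIF3b, 24150 for eIF3d and 62405 for eIF3g, and the 5 genes together took 334, 533, 375 and 290 of these. Without the clusters of EIF3A and those in noncoding RNAs and introns, the lists held 11922, 9249, 13874 and 14447 reads in the same order. Depth per library is unknown, so a difference in reads between subunits can come from depth, and the share of a gene's own reads at each of its sites, which depends on depth only through the sites that reach the list, is given beside it. No cluster of the table has fewer than 8 reads, so a site that is not listed for a subunit may hold fewer reads and has no value. Of 9 markers associated with the 293T line and 15 markers of other cell types, none had a cluster, so the table gives no check of the cell type.

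Of the 36 clusters, 33 lay in a 5′ UTR (91.7%, against 67.8% of all clusters), and the other 3 lay in a coding exon of SCD. Overlapping clusters (1 nt or more) of the same gene and strand were merged into a locus, and the loci of a gene are numbered from its 5′ end. SCD, SLC1A5 and RRAGA each had 3 loci in the 5′ UTR, and ENO1 and GLO1 each had 1, which makes 11. Over all genes of the study, 7 of 331 with a 5′ UTR locus had 3 or more (2.11%) and 36 had at least 2 (10.9%). The number of 5′ UTR sites was part of the choice of these genes. That contrast, and the share of clusters in 5′ UTRs, therefore describe the choice. Of the 11 loci, 4 were listed for all 4 subunits, 3 for 3 and 4 for 2, and 120 of the 376 5′ UTR loci of the table (31.9%) were listed for all 4. By gene, SCD, SLC1A5, RRAGA and GLO1 were found in every subunit and ENO1 in every subunit but eIF3b.

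SLC1A5 encodes a sodium-dependent transporter of neutral amino acids that carries glutamine into cells. Its loci lay on chromosome 19, minus strand, of the hg19 build, all in the annotated 5′ UTR: locus 1 at 47291808 to 47291835, locus 2 at 47291740 to 47291761 and locus 3 at 47291296 to 47291318. Locus 2 began 74 nt and locus 3 began 517 nt downstream of the 5′ end of locus 1. These are genomic distances, and whether an intron lies between sites was not determined. Locus 2 led in every subunit, with 35 reads in eIF3a, 82 in eIF3b and 42 in eIF3d, and 45. in eIF3g Thus eIF3b held the most reads there, and the other 3 subunits lay close together. Locus 1 had 25 reads in eIF3a, 26 in eIF3d and 10 in eIF3g, and locus 3 had 14 in eIF3a and 20 in eIF3d. In eIF3b neither of these sites was listed. Cluster edges were alike between subunits: at loci 1 and 3 every cluster had the same start and end, and at locus 2 the ends differed by 1 nt.

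Locus 2 held 47.3% of the SLC1A5 5′ UTR reads in eIF3a (95% Wilson interval 36.3 to 58.5, of 74 reads), 47.7% in eIF3d (37.6 to 58.0, of 88 reads) and 81.8% in eIF3g (69.7 to 89.8, of 55 reads). In eIF3b it held all 82 listed reads. The eIF3a and eIF3d lists thus spread the gene's reads over 3 sites in nearly the same proportions, while eIF3g and eIF3b concentrated them at the middle site. If each unlisted site held 7 reads, 1 fewer than the smallest cluster of the table, the share of locus 2 would be 85.4% in eIF3b and 72.6% in eIF3g.

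RRAGA encodes RagA, a small GTPase that recruits the growth kinase complex mTORC1 to the lysosome when amino acids are present. Its 3 loci lay within the 5′ UTR on chromosome 9, plus strand: locus 1 at 19049426 to 19049447, locus 2 at 19049449 to 19049470 and locus 3 at 19049511 to 19049530. Locus 2 started 23 nt and locus 3 started 85 nt after the start of locus 1, so the first pair nearly touched. The edges of each of these loci were the same in every subunit that listed it.

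RRAGA had 28 reads in eIF3a, all at locus 3, and 19 reads in eIF3b, all at locus 1. In eIF3d it had 12 reads at locus 1, 8 at locus 2 and 26 at locus 3, and in eIF3g 10 at locus 1 and 25 at locus 2. The strongest site was therefore locus 3 in eIF3a and eIF3d, locus 1 in eIF3b and locus 2 in eIF3g, and eIF3d alone listed all 3. Locus 3 held 56.5% of the listed reads in eIF3d (95% Wilson interval 42.2 to 69.8, of 46 reads), and locus 2 held 71.4% in eIF3g (54.9 to 83.7, of 35 reads). With 7 reads at each unlisted site, the strongest site would hold 66.7% in eIF3a, 57.6% in eIF3b and 59.5% in eIF3g. These are the thinnest counts of the 5 genes: the 8 reads at locus 2 in eIF3d are the smallest number any cluster of the table has.

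SCD encodes stearoyl-CoA desaturase, the enzyme of the endoplasmic reticulum that puts a double bond into saturated fatty acids. Its sites lay on chromosome 10, plus strand: locus 1 at 102106932 to 102106984, locus 2 at 102107017 to 102107041 and locus 3 at 102107079 to 102107108 in the 5′ UTR, and locus 4 at 102107829 to 102107856 in a coding exon. Locus 2 started 85 nt and locus 3 started 147 nt after the start of locus 1. Locus 1 had 69 reads in eIF3a, 18 in eIF3b and 54 in eIF3d, and 35. in eIF3g Locus 3 had 17 reads in eIF3a, 59 in eIF3b and 63 in eIF3d, and 34. in eIF3g The order of these sites was thus opposite in eIF3a and eIF3b, and in eIF3d and eIF3g their reads were close to equal. Locus 2 had 11 reads in eIF3a and 11 in eIF3g, and locus 4 had 11 in eIF3a, 11 in eIF3b and 21 in eIF3g.

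Of the SCD 5′ UTR reads, locus 1 held 71.1% in eIF3a (95% Wilson interval 61.4 to 79.2, of 97 reads), 23.4% in eIF3b (15.3 to 34.0, of 77 reads), 46.2% in eIF3d (37.4 to 55.2, of 117 reads) and 43.8% in eIF3g (33.4 to 54.7, of 80 reads). The eIF3a interval lay above the other 3, and the eIF3b interval lay below that of eIF3d and met that of eIF3g only at its edge. Those of eIF3d and eIF3g overlapped widely. Locus 3 held 17.5% in eIF3a, 76.6% in eIF3b and 53.8% in eIF3d, and 42.5% in eIF3g. Wilson intervals treat reads as independent and cover counting error only, and a spread between libraries could be wider. The cluster of locus 1 in eIF3b reached 102106984, whereas those of eIF3d and eIF3g ended at 102106958 and that of eIF3a at 102106957. The few eIF3b reads at this site therefore lay in a span that reached 27 nt beyond that of eIF3a at its 3′ end.

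**Figure D1:**
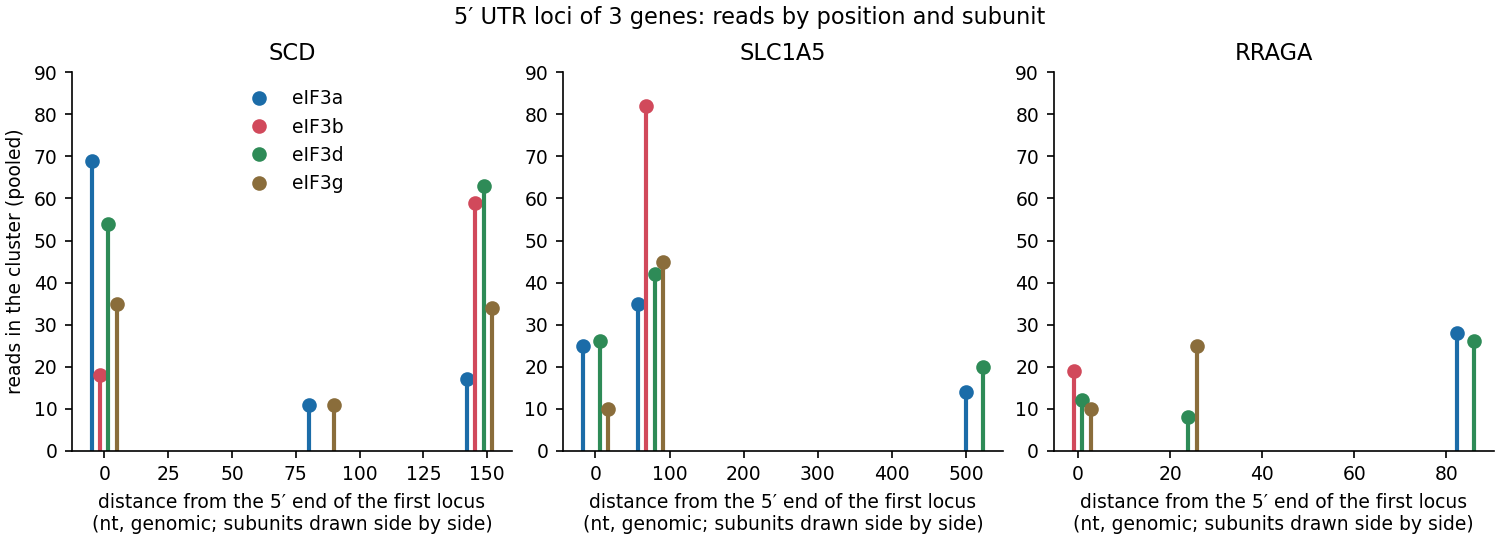
Reads of each 5′ UTR cluster (vertical axis, pooled reads) against the distance of its locus from the 5′ end of the first locus of the gene (horizontal axis, nt), for SCD, SLC1A5 and RRAGA, with 1 line and point for each subunit that listed the cluster and subunits drawn side by side. SCD had 69 reads at locus 1 in eIF3a and 59 at locus 3 in eIF3b, SLC1A5 peaked at its middle locus in every subunit, and RRAGA had its strongest locus at 3 different positions.

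**Figure D2:**
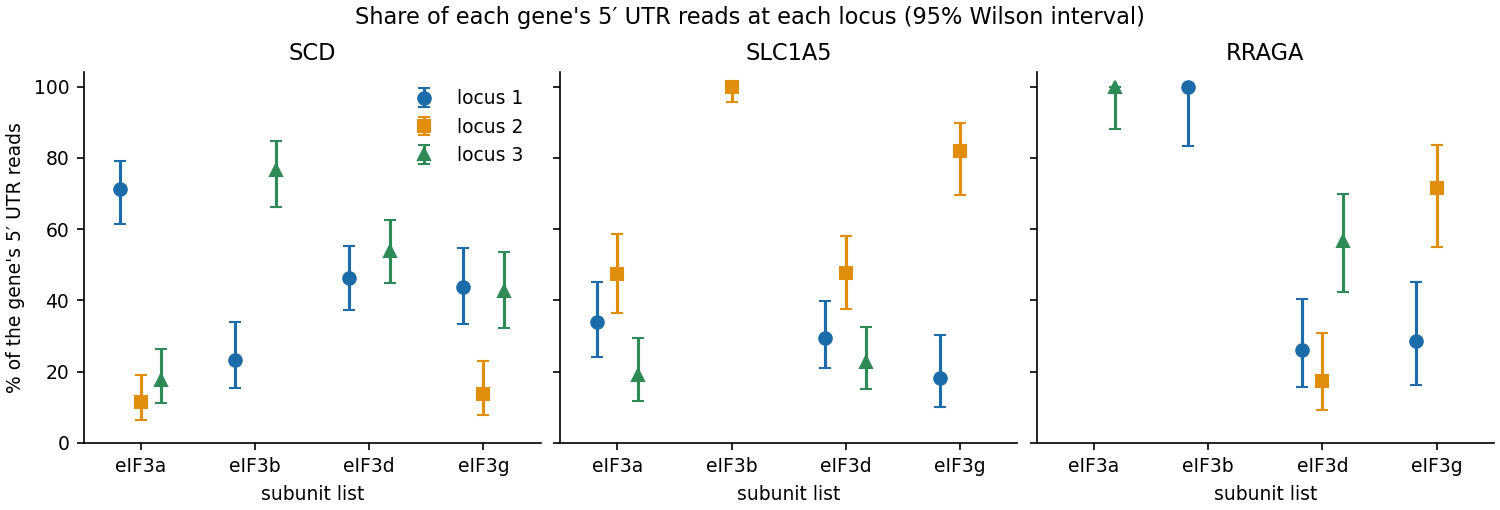
Percent of each gene's 5′ UTR reads at each locus (vertical axis) by subunit list (horizontal axis), with 95% Wilson intervals as bars. A locus that a subunit did not list has no point. Locus 1 of SCD went from 71.1% in eIF3a to 23.4% in eIF3b, while locus 2 of SLC1A5 led in all 4 lists.

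Across the table, 36 genes had at least 2 loci in the 5′ UTR, and the strongest of them differed between subunits in 22 of these genes (61.1%). SCD and RRAGA were among the 22 and SLC1A5 was not, a share like that of the table. Neighbouring 5′ UTR loci of the 3 genes started between 23 and 443 nt apart with a median of 68 nt over 6 pairs, and over all 45 such pairs of the table the median was 83 nt with quartiles of 54 and 180 nt. The 5′ UTR clusters of the 5 genes spanned 19 to 51 nt, counted as end minus start, with a median of 24 nt, which is also the median of all 5′ UTR clusters of the table.

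ENO1 encodes alpha-enolase, the glycolytic enzyme that makes phosphoenolpyruvate. Its single locus in the 5′ UTR ran from 8938674 to 8938719 on chromosome 1, minus strand, with 48 reads in eIF3a, 51 in eIF3d and 38 in eIF3g. The 3 lists held similar numbers of reads, and eIF3b had no ENO1 cluster. The position was less uniform than the reads. The eIF3a and eIF3d clusters both started at 8938693 and ended at 8938717 and 8938719, while the eIF3g cluster ran from 8938674 to 8938700. It lay 19 nt further along the mRNA at its 3′ end and shared only the stretch from 8938693 to 8938700 with the others.

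GLO1 encodes glyoxalase I, which clears methylglyoxal, a reactive by-product of glycolysis. Its single locus in the 5′ UTR lay on chromosome 6, minus strand, from 38670842 to 38670878. It had 76 reads in eIF3a, 344 in eIF3b and 73 in eIF3d, and 61. in eIF3g The eIF3b value stood apart, and the other 3 lay within 15 reads of each other. The eIF3b cluster ranked 11 among the 298 clusters of its list by reads (percentile 96.5), while GLO1 was at percentile 89.2 in eIF3a, 88.5 in eIF3d and 84.8 in eIF3g. Thus GLO1 was a strong site in all 4 lists and strongest in eIF3b. The clusters of eIF3a, eIF3b and eIF3g shared the 5′ edge at 38670878, and that of eIF3d ended at 38670869. The 3′ edge lay at 38670848 in eIF3a, 38670842 in eIF3b and 38670850 in eIF3d and eIF3g.

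For the comparison of subunits, the leading locus of each gene was its 5′ UTR locus with the most reads summed over the subunits: locus 1 of SCD with 176 reads, barely ahead of locus 3 with 173, locus 2 of SLC1A5 with 204, locus 3 of RRAGA with 54, and the single loci of ENO1 with 137 and GLO1 with 554. Per nt of locus, reads summed over subunits were highest in GLO1, with 15.4, then 9.71 in SLC1A5, 3.38 in SCD, 3.04 in ENO1 and 2.84 in RRAGA. The SCD locus was lengthened by its eIF3b cluster, and its locus 3 had 5.97 reads per nt, so the places of SCD, ENO1 and RRAGA in this order are not settled.

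Both subunits of a pair had a cluster at the leading locus in 22 of 30 cases. A difference was called when it reached 2-fold either way on the scale of log2(reads + 1), and 6 of the 22 did, against 36.7% of 1568 such differences over all shared loci of the table. With reads as deposited, the 6 were all among the 9 comparisons that involve eIF3b (40.7% over the table), and none of the 13 others reached 2-fold (33.6% over the table). This split depended on the scaling: scaled by the reads in all clusters, 7 of the 9 and 9 of the 13 reached 2-fold. Centred on the median over shared loci, 8 of the 9 and 0 of the 13 did, and scaled without EIF3A, noncoding and intronic clusters, 7 of the 9 and 1 of the 13. The shares over the table above are for unscaled reads, and those under each scaling are not given here. The comparisons with eIF3b share its 1 list, so they are not independent of each other. The counts also rest on locus 1 as the leading locus of SCD. With locus 3 in its place, a pair without eIF3b would also reach 2-fold without scaling: 17 reads in eIF3a against 63 in eIF3d. The full counts with locus 3 were not made.

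Between eIF3a and eIF3b, 3 of 3 leading loci were at least 2-fold apart (37.8% of 230 shared loci), in both directions. GLO1 was higher in eIF3b by 2.16 on the log2 scale (95% exact binomial interval for counting error 1.82 to 2.56), and SLC1A5 by 1.21 (0.64 to 1.84). SCD was lower in eIF3b at its leading locus 1, with a difference of -1.88 (-2.77 to -1.17). At SCD locus 3 the order was opposite, with 17 reads in eIF3a and 59 in eIF3b. The median over all loci shared by the pair was -0.25, so GLO1 and SLC1A5 lay above it and SCD below it. Among the shared loci, GLO1 lay at percentile 97.2, SLC1A5 at 89.8 and SCD at 5.43. When reads were scaled by the reads in all clusters, SLC1A5 fell under the 2-fold line at 0.88.

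Between eIF3b and eIF3d, 2 of 3 leading loci were called (39.1% of 230 loci): GLO1 was lower in eIF3d, with a log2 difference of -2.22 (-2.62 to -1.87), and SCD was higher by 1.53 (0.79 to 2.44). SLC1A5 fell short of 2-fold at -0.95 (-1.54 to -0.41), but passed it under each of the 3 scalings, at -1.28 by the reads in all clusters, -1.30 when centred and -1.53 without EIF3A, noncoding and intronic clusters. When reads were scaled without EIF3A, noncoding and intronic clusters, the SCD difference was 0.97 and no longer reached 2-fold. Between eIF3b and eIF3g, 1 of 3 was called (45.1% of 233 loci): GLO1 differed by -2.48 (-2.91 to -2.10), with SCD at 0.92 (0.10 to 1.87) and SLC1A5 at -0.85 (-1.42 to -0.32). The SCD difference turned to -0.71 when scaled by the reads in all clusters and was 0.30 without EIF3A, noncoding and intronic clusters. That of SLC1A5 passed 2-fold under the same 3 scalings, at -2.51, -1.06 and -1.49 in that order. Without scaling, GLO1 thus differed by more than 4-fold between eIF3b and each other subunit.

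Without scaling, no leading locus listed for both subunits reached 2-fold in the 3 pairs that leave out eIF3b. Locus 3 of RRAGA, with 28 reads in eIF3a and 26 in eIF3d, was not listed for eIF3g and was not compared with it. Between eIF3a and eIF3d 0 of 5 were called (25.8% of 299 loci), and the log2 differences of eIF3d from eIF3a ran from -0.35 in SCD to 0.26 in SLC1A5, with every interval including 0. Locus 3 of SCD, which was not a leading locus, had 17 reads in eIF3a and 63 in eIF3d. Between eIF3a and eIF3g 0 of 4 were called (38.7% of 284 loci). The largest of these was SCD at -0.96 (-1.61 to -0.37), which reached -1.23 when scaled without EIF3A, noncoding and intronic clusters, while SLC1A5 was at 0.35, ENO1 at -0.33 and GLO1 at -0.31. Between eIF3d and eIF3g 0 of 4 were called (36.6% of 292 loci), from -0.61 in SCD to 0.10 in SLC1A5. Scaled by the reads in all clusters, eIF3g, the list with the most reads in clusters, fell below the others: the difference of eIF3g from eIF3a was then -2.95 in SCD, -1.64 in SLC1A5, -2.32 in ENO1 and -2.32 in GLO1. With the same scaling eIF3g differed from eIF3d by -1.93 in SCD, -1.23 in SLC1A5, -1.74 in ENO1 and -1.60 in GLO1, and eIF3d from eIF3a by -1.02 in SCD. Of the 62405 eIF3g reads in all clusters, 14447 were left without EIF3A, noncoding and intronic clusters. Scaled by the reads that were left, eIF3g differed from eIF3a by 0.08 in SLC1A5, -0.60 in ENO1 and -0.59 in GLO1.

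**Figure D3:**
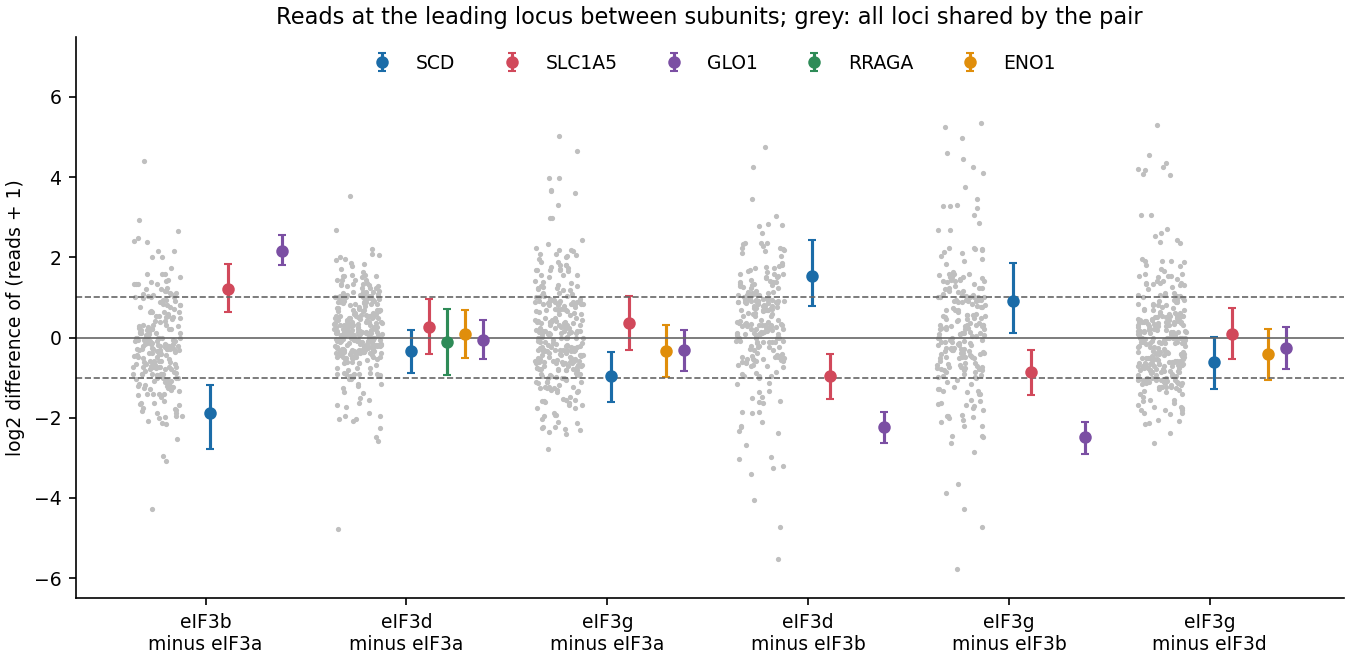
Log2 difference of (reads + 1) at the leading locus of each gene (coloured points, with 95% exact binomial intervals for counting error) for 6 pairs of subunits, beside every locus shared by the pair (grey points). Dashed lines mark 2-fold. GLO1 lies above the line for eIF3b minus eIF3a and below it for eIF3d and eIF3g minus eIF3b, and with these unscaled reads no coloured point crosses the lines in the 3 pairs without eIF3b.

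T-to-C conversions mark uridines that were crosslinked, since the crosslinked analog is read as C. In eIF3a the conversions per read of the 9 5′ UTR clusters of these genes ran from 0.72 to 1.54 with a median of 1.00, in eIF3b from 0.683 to 1.26 over 5 clusters, and in eIF3g from 0.40 to 1.31 over 9 clusters. The medians of all clusters were 1.02, 1.05 and 1.02. In eIF3d the 10 clusters had between 0.0685 and 0.333 conversions per read with a median of 0.149, against 0.182 over all eIF3d clusters. The genes thus followed the level of each list. At all 5 leading loci eIF3d had the fewest conversions per read, as it had at 359 of 368 loci listed for eIF3d and another subunit (97.6%) and at 168 of 172 loci listed for all 4 (97.7%), so these genes did not stand apart from the table in this. None of the sources used here gives what the eIF3d entries count.

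Within the lists the genes differed. ENO1 had 74 conversions in 48 reads in eIF3a, or 1.54 per read (percentile 93.7 of that list), 43 in 38 reads in eIF3g and 8 in 51 reads in eIF3d. GLO1 had 72 conversions in 76 reads in eIF3a, 434 in 344 in eIF3b, 5 in 73 in eIF3d and 80 in 61 in eIF3g, so its 1.26 conversions per read in eIF3b lay between the eIF3a and eIF3g values. SLC1A5 lay between percentiles 10.7 and 42.1 of the lists, its sites differing among themselves. Locus 2 had 56 conversions in 82 reads in eIF3b (0.683 per read, percentile 12.2), and locus 1 had 18 in 25 reads in eIF3a (0.72, percentile 12.7) and 4 in 10 reads in eIF3g (0.40, percentile 10.7). Its higher values were 14 conversions in 14 reads at locus 3 in eIF3a (percentile 42.1) and 44 in 45 reads at locus 2 in eIF3g (0.978, percentile 36.3), and in eIF3d loci 1 and 3 lay at percentiles 42.1 and 41.2. Values above 1 mean more than 1 conversion per read on average.

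SCD locus 1 had 79 conversions in 69 reads in eIF3a, 15 in 18 in eIF3b, 8 in 54 in eIF3d and 36 in 35 in eIF3g. SCD locus 3 had 19 in 17 reads in eIF3a, 68 in 59 in eIF3b, 7 in 63 in eIF3d and 35 in 34 in eIF3g. Outside eIF3d both sites thus carried near 1 conversion per read, and the coding exon site carried exactly 1 per read, with 11 in 11, 11 in 11 and 21 in 21 reads. RRAGA had 25 conversions in 28 reads at locus 3 in eIF3a, 20 in 19 at locus 1 in eIF3b and 23 in 25 at locus 2 in eIF3g. These values are from different lists. In eIF3d, which had clusters at all 3 RRAGA sites, locus 1 had 4 in 12 reads (0.333 per read), locus 2 had 2 in 8 (0.25) and locus 3 had 3 in 26 (0.115).

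**Figure D4:**
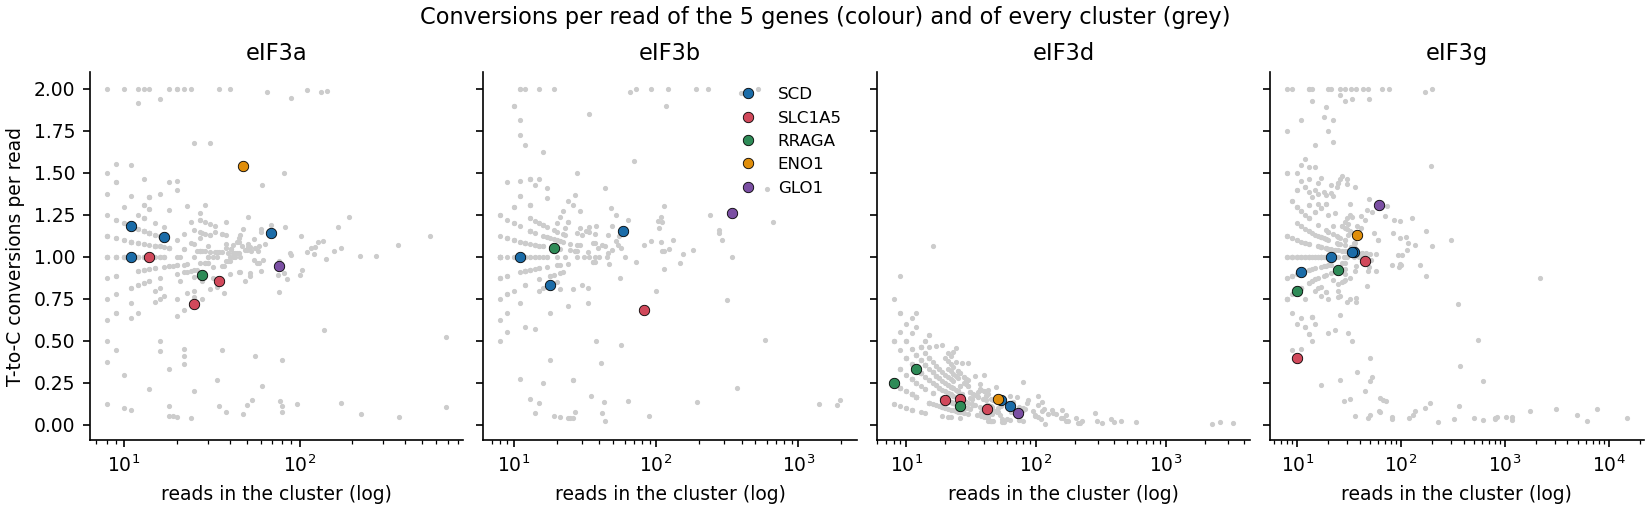
T-to-C conversions per read (vertical axis) against reads in the cluster (horizontal axis, log scale) in each subunit list, for the clusters of the 5 genes (coloured) and every cluster of the list (grey). The coloured points lie between 0.40 and 1.54 in eIF3a, eIF3b and eIF3g and at or below 0.333 in eIF3d.

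The same pathways were looked up through 5 lists of genes: amino acid transporters, nutrient sensing by mTORC1, glycolysis and lactate, glyoxalase and glutathione, and synthesis of fatty acids and sterols. Of their 130 genes 11 had a cluster, each of them in the 5′ UTR: the 5 genes above and 6 of the 125 others (4.80%). The share of all human genes with a cluster is not given here, so 4.80% cannot be read as many or few. The median of the summed reads was 66 over these 6 genes and 57 over all 479 genes of the table, and the lowest of the 5 chosen genes, RRAGA, had 128. The chosen genes had more reads than the other pathway genes with the exception of ELOVL5, whose 149 reads lay above ENO1 and RRAGA. Reads were in view when the genes were chosen, so this contrast describes the choice.

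Of 21 amino acid transporters 3 had a cluster. Beside SLC1A5 these were SLC7A1, a transporter of cationic amino acids, with 12 reads in eIF3a, 36 in eIF3b and 9 in eIF3d, and 13 in eIF3g, and SLC7A5, a transporter of large neutral amino acids, with 9 in eIF3a and 17 in eIF3g. SLC7A1 was highest in eIF3b, as locus 2 of SLC1A5 was. Of 40 genes of nutrient sensing 2 had a cluster, RRAGA and the leucine sensor SESN2, which had 16 reads in eIF3a, 32 in eIF3d and 14 in eIF3g.

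Of 25 genes of glycolysis and lactate 2 had a cluster, ENO1 and the lactate transporter SLC16A1, with 31 reads in eIF3a, 24 in eIF3b and 22 in eIF3d. Of 14 genes of the glyoxalase and glutathione list 2 had one, GLO1 and GCLM, a subunit of the enzyme that starts glutathione synthesis, with 16 reads in eIF3b. Of 30 genes of fatty acid and sterol synthesis 2 had one, SCD and the fatty acid elongase ELOVL5, with 30 reads in eIF3a, 17 in eIF3b and 29 in eIF3d, and 73. in eIF3g Each list thus held at most 2 genes beside the chosen one, and the 6 genes had no common order of subunits.

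**Figure D5:**
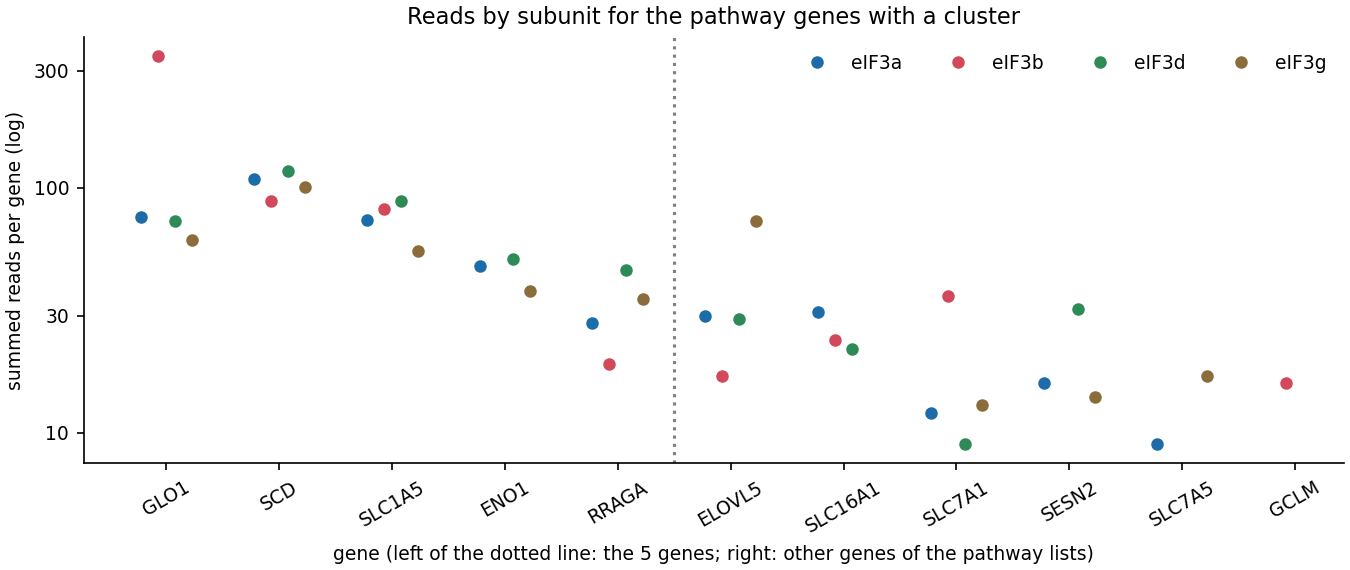
Reads summed over all clusters of a gene (vertical axis, log scale) by subunit for the 5 genes (left of the dotted line) and the 6 other pathway genes with a cluster (right). A subunit without a cluster has no point. GLO1 stands out at 344 reads in eIF3b, and ELOVL5 reaches 73 reads in eIF3g.

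Genes with similar reads were found by the root mean square difference of log2(reads + 1) over the 4 subunits. This measure takes in the level of reads as well as their order over subunits. An unlisted cluster was taken as 0 reads, and the candidates were 5′ UTR loci listed for the same number of subunits. Closest to GLO1 were C7orf55-LUC7L2 (0.386 log2 units, with reads of 123 for eIF3a, 290 for eIF3b, 79 for eIF3d and 52 for eIF3g) and the cyclin gene CCNG1 (0.646, with 75, 155, 111 and 60 in that order). Closest to SCD locus 1 were HNRNPA2B1, an RNA-binding protein (0.369), and TLE4, a transcriptional corepressor (0.441). Next to SLC1A5 locus 2 came AKR1A1, an aldehyde reductase (0.552, with 23, 60, 64 and 30 reads in that order), and MOB1A (0.564, with 55, 111, 43 and 25). AKR1A1 had its highest value in eIF3d, whereas SLC1A5 locus 2 and MOB1A had theirs in eIF3b. Closest to RRAGA locus 3 were CKS2, a regulator of cyclin-dependent kinases (0.0253, with 27 reads in eIF3a and 26 in eIF3d), and TXNIP (0.328), both also without a cluster there in eIF3b and eIF3g. ENO1 was followed by the bromodomain gene BRD2 (0.214, with 59 reads in eIF3a, 48 in eIF3d and 47 in eIF3g) and PCBP1 (0.522), which had no such cluster in eIF3b either. With 4 pooled values per locus and between 85 and 119 candidate loci, close matches say nothing of shared control.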

How the data were processed

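The values come from 1 table that gives, per cluster and subunit, the read count and the number of T-to-C conversions. The deposited counts are whole numbers headed only as reads and T-to-C conversions, and the headers do not say whether they were normalized. There is no replicate column, so replicates are taken as pooled, and how they were pooled is not given. The submitters' processing notes name bedtools, Bowtie and cutadapt, and hg19 as the build. Not given in the sources used here are the cluster caller, its thresholds, the use of the barcode of replicate 1, and whether positions count from 0 or 1. Positions are printed as deposited. Clusters of a gene on 1 strand overlapping by at least 1 nt were joined (559 loci in the table). The joining was run on simulated loci that lay well apart, with reads free of counting noise. That does not cover sites as close as loci 1 and 2 of RRAGA. Differences are log2(reads + 1), called at 2-fold. Intervals (95%, Wilson for shares, Clopper-Pearson for ratios) came from scipy 1.17.1. The members, lists and rule for named genes (the 5 genes, list genes with a cluster, and the 2 nearest genes per leading locus) were chosen with earlier results of these data known. Reference names came from a RefSeq table of GRCh38.p14, matching every list gene, and none of its coordinates was used. Reads from PCR are not independent molecules, so intervals cover counting error only.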

Additional observations from a re-analysis of the deposited data

How the results depend on the processing

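The 5 genes had 10 loci in the 5′ UTR when clusters up to 10 nt apart were joined, which merges 2 RRAGA sites, and 9 when clusters under the subunit's median reads were dropped. The count of differences of at least 2-fold was 6 of 22, with the share over the table given for unscaled reads only. It rose to 16 when reads were scaled by the reads in all clusters and stayed between 4 and 8 under the other 5 alternatives. Among these, taking the strongest cluster of a locus could not change the count. Each subunit that listed a locus of these genes had a single cluster there. Scaled by the reads in all clusters, 5 of the 22 signs turned, among them SCD in eIF3g minus eIF3b at -0.71. With that scaling 5 of the 6 calls kept their sign and their 2-fold size. The 3 GLO1 calls kept both under every scaling and pseudocount tried. The count of 5 genes with the fewest conversions in eIF3d did not change. The 10 nearest genes were the same when each subunit was centred on its median. A shift common to all loci of a subunit leaves these distances as they were, so this was no check of them. Of 11 pathway genes 9 were left when clusters under the subunit's median reads were dropped. In alternatives chosen after seeing the data, the share of SCD locus 1 in eIF3a was 80.2% over the loci of all 4 subunits, and that of SLC1A5 locus 2 in eIF3d 61.8% without locus 3. Depth limits RRAGA most, with 8 to 28 reads per cluster. No paired analysis was possible because the table holds 1 pooled value per subunit, and replicates could not be left out for the same reason.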
